A study of Rattus norvegicus with 13 samples.

Results

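The 46 transcript rows described here belong to the secreted and membrane-bound metalloproteases that cut the extracellular matrix and cell-surface proteins, and to their dedicated inhibitors. They were picked by gene symbol alone: a disintegrin and metalloprotease (*Adam* plus a number), its relatives with thrombospondin motifs (*Adamts*, with the *Adamtsl* genes), matrix metalloproteases (*Mmp*) and tissue inhibitors of metalloproteases (*Timp*), wherever the mean normalized count over the 13 pups was at least 10. All 46 rows with such symbols passed that minimum, each standing for a different gene, out of 14606 rows tested and 14716 in the deposited table. They comprise 10 ADAMs, 19 ADAMTS enzymes, 4 ADAMTS-like proteins, 10 MMPs and 3 TIMPs (*Timp1*, *Timp3* and *Timp4*). *Timp2* was not analysed here.

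The samples were the posterior ventricular zone (VZ), the germinal layer that lines the lateral ventricle, cut out by laser capture microdissection from male Long Evans rat pups on PN2 (postnatal day 2). Dams drank water with 0 ppm (7 control pups, labelled euthyroid) or 3 ppm (6 PTU exposed pups, labelled hypothyroid) of propylthiouracil, an inhibitor of thyroid hormone synthesis, during pregnancy and lactation. Each pup came from a separate litter, so the spread between pups is also the spread between litters, and the exposure reached the pups through the dam. The values are normalized counts of total RNA sequencing, from captured RNA in which the study's methods report some degradation. They are not corrected for transcript length and are compared here only between pups within a gene, and because the samples were bulk tissue, fewer cells of a type and less RNA per cell cannot be told apart.

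MMPs and ADAMTS enzymes are made as inactive precursors and degrade collagens, basement membrane and the chondroitin sulfate proteoglycans called lecticans, whereas most ADAMs release the outer parts of membrane proteins such as Notch, cadherins and growth factor precursors. TIMPs bind the zinc of the active site and block it. In the developing brain these enzymes are known for remodelling the matrix around progenitors and vessels and for shedding adhesion and signalling proteins from radial glia.

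The promoters of the members with the lowest unadjusted p in each of the 5 families are shown first, though none of them passed adjustment. Of the 46 members, 33 had an entry in the RefSeq promoter table, which uses the GRCr8 build (the reads were mapped to mRatBN7.2). The 13 without one were *Adamts8*, *Mmp14*, *Adam9*, *Adam23*, *Adamts16*, *Mmp17*, *Mmp2*, *Adam11*, *Adamts19*, *Mmp16*, *Adamts5*, *Adamts15* and *Mmp19*. Each sequence is the 250 bases before the annotated start, 5′ to 3′ on the strand of the gene, in the order *Timp1* (chrX:3771123-3771372, minus strand), *Adamts18* (chr19:58748940-58749189, minus), *Mmp24* (chr3:164738976-164739225, plus), *Adamtsl2* (chr3:30802450-30802699, plus) and *Adam17* (chr6:46649345-46649594, minus). Capitals mark matches to the GC box, GGGCGG on either strand, which the general transcription factor Sp1 binds.
Timp1: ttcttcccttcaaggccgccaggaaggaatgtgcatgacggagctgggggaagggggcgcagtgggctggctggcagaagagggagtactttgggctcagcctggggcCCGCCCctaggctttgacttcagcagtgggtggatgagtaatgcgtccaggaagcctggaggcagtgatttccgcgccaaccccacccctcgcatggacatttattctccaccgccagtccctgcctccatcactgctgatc
Adamts18: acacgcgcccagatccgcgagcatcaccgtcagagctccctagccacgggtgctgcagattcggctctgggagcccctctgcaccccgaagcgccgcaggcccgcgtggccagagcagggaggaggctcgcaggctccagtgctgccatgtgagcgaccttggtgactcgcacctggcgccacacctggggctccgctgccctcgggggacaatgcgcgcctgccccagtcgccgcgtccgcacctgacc
Mmp24: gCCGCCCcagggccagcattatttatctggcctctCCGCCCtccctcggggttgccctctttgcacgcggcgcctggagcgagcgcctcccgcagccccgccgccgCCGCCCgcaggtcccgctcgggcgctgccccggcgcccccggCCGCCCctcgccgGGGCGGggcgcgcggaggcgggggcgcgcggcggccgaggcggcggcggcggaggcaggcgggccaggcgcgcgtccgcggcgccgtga
Adamtsl2: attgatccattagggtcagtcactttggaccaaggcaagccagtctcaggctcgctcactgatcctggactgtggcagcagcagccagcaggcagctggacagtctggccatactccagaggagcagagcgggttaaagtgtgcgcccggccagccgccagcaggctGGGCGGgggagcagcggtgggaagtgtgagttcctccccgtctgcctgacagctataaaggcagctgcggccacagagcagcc
Adam17: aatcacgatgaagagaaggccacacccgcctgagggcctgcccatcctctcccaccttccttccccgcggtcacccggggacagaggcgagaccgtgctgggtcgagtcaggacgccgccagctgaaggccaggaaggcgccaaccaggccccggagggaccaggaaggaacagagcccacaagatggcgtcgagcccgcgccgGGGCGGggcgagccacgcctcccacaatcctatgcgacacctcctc

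*Mmp24* had 5 GC boxes, of which the farthest began 249 bases before the start, and a GC content of 83.6%, against 61.2% for *Timp1*, 71.2% for *Adamts18*, 62.4% for *Adamtsl2* and 68.4% for *Adam17*. *Timp1*, *Adamtsl2* and *Adam17* had 1 GC box each, at 142, 83 and 46 bases, and *Adamts18* had none. The other motifs searched on both strands were AGGTCA, the core hexamer that thyroid hormone receptors bind, and TGANTCA, the AP-1 site, and none of the 5 windows held either. Over all members with an entry, AGGTCA occurred before 4 of 33 genes (*Adamts13*, *Adamts6*, *Adamtsl1* and *Mmp25*; 12.1%) against 14.8% of the 27457 genes in the table. Counted by window instead of by gene, since some genes have several annotated starts, it occurred in 12 of 43 member windows (27.9%) against 14.1% of all 33469, and 7 of those 12 were starts of *Adamts13* and 3 of *Adamtsl1*. TGANTCA occurred before 1 of 33 (*Adam19*; 3.03%), against 6.99% of all genes, and the GC box before 25 of 33 (75.8%), against 33.5%. Matches to each motif were counted separately, overlapping or not, and a match is only a run of letters, not a measured binding site.

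PTU exposed pups and controls were compared to see which matrix proteases and inhibitors differ in the hypothyroid VZ. *Timp1* was lower in all 6 PTU exposed pups than in any control in the deposited values, 4 ADAMTS genes (*Adamts18*, *Adamts8*, *Adamts17*, *Adamts6*), *Mmp14* and *Adam17* were lower at an unadjusted p under 0.05, and *Mmp24*, *Mmp25* and *Adamtsl2* were higher. None of these differences passed the test after adjustment. In the limma fit across 14606 rows with Benjamini-Hochberg adjustment, 0 of 46 members reached an adjusted p of 0.05 (background 0% of all rows), the smallest being 0.133 for *Timp1* and 0.0981 over all rows. At an unadjusted p under 0.05 there were 10 members (21.7%), against 16.3% of all rows, a share near the background. The 7 that were lower made up 15.2% of members against 8.2% of all rows, and the 3 that were higher made up 6.52% against 8.11%. The exact permutation test over the 1716 ways to divide the pups gave an unadjusted p under 0.05 for 9 members (19.6%), against 15.3% of all rows. Leaving out PTU pup 6 reduced the count of 10 to 5 and the share of all rows from 16.3% to 12.3%.

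Direction was divided within every family but the TIMPs, of which *Timp4* turned positive under the scaling to equal totals described next. Values were lower in PTU exposed pups for 28 members and higher for 18, where 49.3% of all rows were lower. With a score of choroid plexus markers as a covariate the tally turned over, to 17 lower and 29 higher. The median log2 fold change (PTU exposed minus control, on the log2(normalized count + 1) scale) was −0.08 over members and 0.00 over all rows. Member differences had a median size of 0.245 on the log2 scale against 0.167 over all rows, which were not matched to the members for abundance. The median SE was 0.46 for the 13 members with a mean under 100 normalized counts and 0.22 for the rest. The balance also depended on scaling, and on 3 rows without a gene symbol that took 32.4% to 60.1% of a control pup's total (median 50.9%) and 23.9% to 57.0% of a PTU exposed pup's (median 35.8%). Under scaling to equal totals, the median of all rows moved to 0.20 and that of the members to 0.13, 18 members were lower and 28 higher, and 1 member was lower and 4 were higher at an unadjusted p under 0.05. Relative to the median of all rows the members then stood at −0.08, as before. With those 3 rows kept out of the totals, a setting added after the data were seen, the median of all rows was 0.01 and that of the members −0.07, and 28 members were again lower and 18 higher, 7 and 3 of them at an unadjusted p under 0.05.

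**Figure D1:**
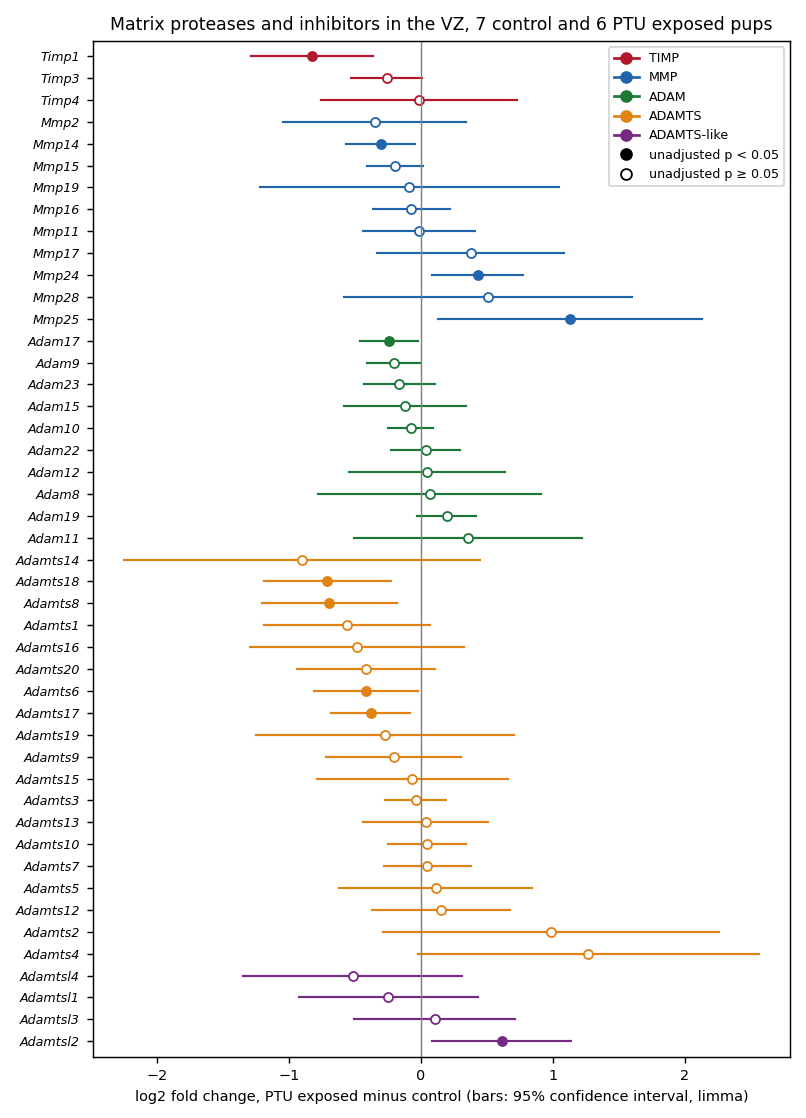
Log2 fold change of the 46 members (PTU exposed minus control) with 95% confidence intervals from limma, ordered within families. Filled points have an unadjusted p under 0.05 (10 members), none passed the adjusted threshold, and the intervals are widest for rows with few counts such as *Adamts14* and *Adamts4*.

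Of the inhibitors, *Timp1* differed most. TIMP1 inhibits most secreted MMPs. Control pups had 307 to 602 normalized counts of *Timp1* (median 345) and PTU exposed pups had 128 to 301 (median 245). The groups did not overlap, although the highest PTU pup lay only just under the lowest control, with control pup 5 highest and PTU pup 6 lowest. The separation did not hold under other scalings. With equal totals 4 of 6 PTU pups lay above the lowest control, and PTU pup 2 lay above 3 controls. With the 3 rows of highest mean kept out of the totals, 2 PTU pups, pup 2 among them, lay above 1 control. Means were 401 ± 111 (SD, n = 7) and 229.9 ± 73.8 (SD, n = 6), a log2 fold change of −0.83 (SE 0.22, 95% interval −1.29 to −0.36). In limma the unadjusted p was 0.00153 and the adjusted p 0.133. Exact permutation gave p = 0.000583, the smallest that 13 pups in groups of these sizes allow. With any 1 pup left out the log2 fold change stayed between −0.92 and −0.67. *Timp1* was the only member (2.17%) whose groups did not overlap, against 0.596% of all rows, and under each of those scalings 0 members separated, against 0.253% and 0.548% of all rows.

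*Timp3* encodes the TIMP that stays bound to the matrix and also blocks ADAM17 and several ADAMTS enzymes. It had 820.5 to 1449.6 normalized counts in controls (median 1052) against 682 to 1079 in PTU exposed pups (median 912). Only PTU pup 6 lay below the lowest control, and 3 controls exceeded the highest PTU pup. On the log2 scale the difference was −0.26 (SE 0.13, unadjusted p = 0.0592, adjusted p = 0.324). *Timp4*, an MMP inhibitor of more restricted expression, had few counts, 18.4 to 70 in controls (median 34.4) and 25.4 to 67.8 in PTU exposed pups (median 31.4). The groups covered almost the same span, with a log2 fold change of −0.02 (SE 0.35, 95% interval −0.76 to 0.72), and the sign became positive, at 0.18, under scaling to equal totals.

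The 3 *Timp* genes share a position in the genome that bears on these counts. In the RefSeq gene table (GRCr8) each lies inside a synapsin gene, *Timp1* in *Syn1*, *Timp3* in *Syn3* and *Timp4* in *Syn2*, with *Timp1* and *Timp4* on the strand opposite their host. The library kit keeps strand, but whether the counting used it is not given in the sources used here, and whether exons of a *Timp* gene overlap those of its host was not tested, so how far their counts share reads is not known. The hosts, which encode synaptic vesicle proteins, had positive log2 fold changes. *Syn1* averaged 1789 ± 289 normalized counts in controls and 2243 ± 780.4 in PTU exposed pups (log2 fold change 0.28, adjusted p = 0.417), and the log2 fold changes of *Syn3* and *Syn2* were 0.48 (adjusted p = 0.226) and 1.64 (adjusted p = 0.143). Of the 46 members, 10 overlapped another protein-coding gene in that table, among them *Mmp24* with *Mmp24os* and *Mmp11* with *Chchd10*, and the 3 *Timp* genes lay wholly inside one.

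**Figure D2:**
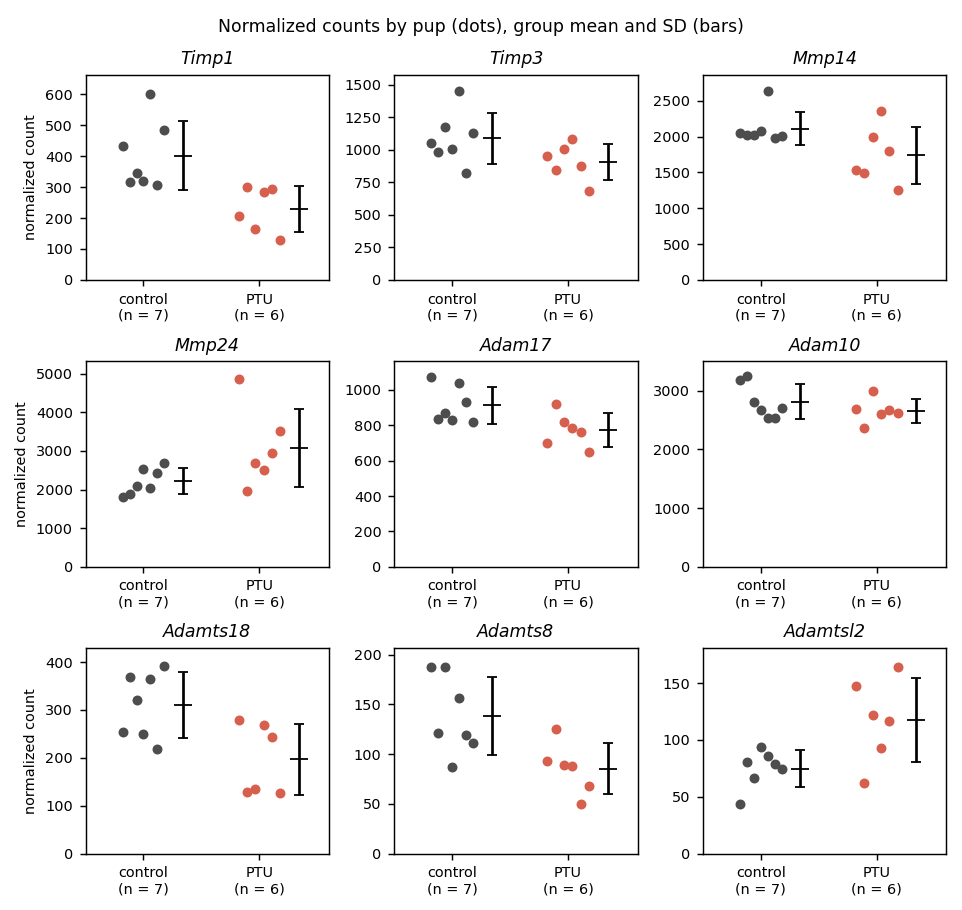
Normalized counts of 9 members in each pup (points; 7 control, 6 PTU exposed) with the group mean and SD (bars), every axis starting at 0. *Timp1* is the panel in which the groups separate, *Mmp14* shows control pup 5 above the other controls, and *Adam10* overlaps throughout.

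Among the MMPs the membrane-type enzymes, which sit at the cell surface and act on nearby matrix and receptors, held all 3 members with an unadjusted p under 0.05, in both directions. Of these 6 enzymes 2 were higher and 1 lower at that level, and 3 were not under it. Over all rows 8.11% were higher and 8.2% lower at that level. *Mmp14* encodes the membrane-type collagenase that activates the precursor of MMP2. Its normalized counts were 1975 to 2634 in controls (median 2028) against 1258 to 2357 in PTU exposed pups (median 1668). The controls were tightly packed apart from control pup 5, and 4 of 6 PTU pups lay below all of them. This gave a log2 fold change of −0.30 (SE 0.12, unadjusted p = 0.0257, adjusted p = 0.250, exact permutation p = 0.0548), and of −0.10 under scaling to equal totals.

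*Mmp24*, whose protein is a membrane-type MMP found mostly in the nervous system and able to cut N-cadherin, was higher. Control pups had 1810.0 to 2697 normalized counts (median 2086) and PTU exposed pups 1959.8 to 4861 (median 2811). The groups overlapped, with 3 PTU pups above every control, and PTU pup 1 was far above the others of its group. The log2 fold change was 0.43 (SE 0.16, unadjusted p = 0.0176, adjusted p = 0.220) and 0.29 without PTU pup 1. PTU pup 1 also had the highest score of 12 neuron markers (their mean log2 deviation from the row mean), 1.56 against −0.80 to 0.58 in the other pups. With that score in the model the fold change of *Mmp24* was 0.22, and the part of neuronal RNA in the result was not tested further.

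*Mmp25*, a lipid-anchored membrane-type MMP best known from leukocytes, was thinly covered. It had 3 to 41.8 normalized counts in controls (median 25.8) against 26.2 to 50 in PTU exposed pups (median 47.6). Control pups 1 and 6 were lowest and 4 of 6 PTU pups lay above all controls. The log2 fold change of 1.13 had a wide error (SE 0.47, unadjusted p = 0.0287, adjusted p = 0.260) and fell between 0.75 and 1.52 over the alternative settings. The other membrane-type enzymes, *Mmp15*, *Mmp16* and *Mmp17*, had log2 fold changes of −0.20, −0.07 and 0.38 with adjusted p of 0.338, 0.830 and 0.595.

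*Mmp2*, the gelatinase that cuts basement membrane collagen, was the sole gelatinase measured. Its normalized counts spanned 304 to 945 in controls (median 776) and 248 to 1177 in PTU exposed pups (median 665). A low pup or pair of pups marked each group: control pup 6 lay far below the other controls, and PTU pups 2 and 6 lay below all controls. In log2 terms the fold change was −0.35 (SE 0.33, 95% interval −1.04 to 0.34, adjusted p = 0.618), and it was −0.12 without PTU pup 6, −0.16 without PTU pup 2, −0.55 without control pup 6 and −0.57 without PTU pup 4. Of the other secreted MMPs, *Mmp11*, a stromelysin that furin activates inside the cell, stood at 72.4 to 107 in controls (median 84.5) and at 65 to 107 in PTU exposed pups (median 91.2). The spans were nearly identical, with a log2 fold change of −0.02 (SE 0.20). *Mmp19* and *Mmp28* averaged under 100 normalized counts, and their log2 fold changes of −0.09 and 0.51 had SEs of 0.54 and 0.52.

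Among the ADAM proteases *Adam17*, which encodes the main sheddase of tumour necrosis factor and of epidermal growth factor receptor ligands, had 818 to 1075 normalized counts in controls (median 870.1) and 648 to 923 in PTU exposed pups (median 774). Below every control lay 4 of 6 PTU pups, PTU pup 6 lowest, and PTU pup 2 was above the control mean. On the log2 scale the difference was −0.24 (SE 0.10, unadjusted p = 0.0306, adjusted p = 0.265, exact permutation p = 0.0291), and −0.04 under scaling to equal totals. It was the only one of the 7 ADAM proteases with an unadjusted p under 0.05 (16.3% of all rows), the 7 log2 fold changes running from −0.24 to 0.19.

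*Adam10*, the sheddase of Notch receptors and N-cadherin and the member with the most counts, had 2530.3 to 3259 normalized counts in controls (median 2706) against 2374 to 2992 in PTU exposed pups (median 2647). All but 1 PTU pup lay within the control range. The log2 fold change was −0.08 with the narrowest error of any member (SE 0.08, 95% interval −0.25 to 0.09), an interval that does not reach the fold change of *Timp1*. It was 0.12 under scaling to equal totals. *Adam9*, another sheddase, had a log2 fold change of −0.20 (SE 0.10, unadjusted p = 0.0535, adjusted p = 0.315) and *Adam19*, which cuts neuregulins, one of 0.19 (SE 0.11, adjusted p = 0.367). *Adam8*, *Adam12* and *Adam15* lay between −0.12 and 0.07.

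The ADAMs without protease activity, which serve as receptors for the secreted protein LGI1 and as adhesion molecules, showed no difference past the test. *Adam23* spanned 975 to 1506 normalized counts in controls (median 1127) and 816 to 1380.5 in PTU exposed pups (median 999). Most of both groups overlapped, and the log2 fold change was −0.16 (SE 0.13, adjusted p = 0.538), −0.10 without control pup 6 and −0.25 without PTU pup 1. *Adam22* and *Adam11* stood at 0.04 and 0.35 (adjusted p = 0.913 and 0.690).

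Of the 19 ADAMTS genes, 12 had lower and 7 had higher values after PTU exposure, and all 4 with an unadjusted p under 0.05 were lower, where 49.3% of all rows were lower and 8.2% were lower at that level. With the choroid plexus score as a covariate 7 were lower and 12 higher, 1 of each at that level. Under scaling to equal totals the 4 stood at −0.51 (*Adamts18*), −0.49 (*Adamts8*), −0.18 (*Adamts17*) and −0.21 (*Adamts6*) and none was at that level. *Adamts18*, an enzyme of poorly known substrates that is tied to eye and vessel development, had 219 to 391 normalized counts in controls (median 322) and 127 to 279 in PTU exposed pups (median 189). The PTU pups fell into a low trio, pups 2, 3 and 6, all below the lowest control, and a trio within the control range. Means were 310.0 ± 69.0 (SD, n = 7) and 197 ± 73.9 (SD, n = 6). PTU exposed minus control, the log2 difference was −0.71 (SE 0.23, unadjusted p = 0.00624, adjusted p = 0.171, exact permutation p = 0.0204).

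*Adamts8*, an enzyme of the lectican-cleaving group with antiangiogenic activity, had 86.8 to 188 normalized counts in controls (median 121) against 49.7 to 125 in PTU exposed pups (median 88.5). All PTU pups lay under the control mean of 138 ± 39.1 (SD, n = 7), and 2 of them, pups 5 and 6, under the lowest control. In log2 terms the fold change was −0.69 (SE 0.24, unadjusted p = 0.0107, adjusted p = 0.186, exact permutation p = 0.0169).

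*Adamts17*, whose human counterpart is mutated in a disorder of the lens and connective tissue, had 308 to 377 normalized counts in controls (median 324) against 193 to 333 in PTU exposed pups (median 249). The controls were even, 4 of 6 PTU pups lay below all of them, and PTU pups 1 and 3 lay among them. The log2 fold change was −0.38 (SE 0.14, unadjusted p = 0.0154, adjusted p = 0.208, exact permutation p = 0.0122).

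*Adamts6*, a relative of the fibrillin-associated *Adamts10*, had 125 to 217 normalized counts in controls (median 167) and 85.9 to 171 in PTU exposed pups (median 119). PTU pup 5 alone lay above the control mean and 4 of 6 lay below all controls. This gave a log2 fold change of −0.41 (SE 0.19, unadjusted p = 0.0408, adjusted p = 0.291). *Adamts10* itself stood at 0.05 (SE 0.14, adjusted p = 0.900).

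In the lectican-cleaving group as a whole 5 of 7 genes were lower, beside 49.3% of all rows, and 2 were higher. At an unadjusted p under 0.05, 1 of the 7 was lower (8.2% of all rows). The group's median was −0.21 on the log2 scale. With a score of choroid plexus markers as a covariate the group turned to 5 higher and 2 lower, with a median of 0.23, and under scaling to equal totals 0 were lower and 1 was higher at that level. *Adamts1*, an early response protease that cuts aggrecan and versican, spanned 329 to 861 normalized counts in controls (median 574) and 167 to 849 in PTU exposed pups (median 382). The groups overlapped widely, PTU pup 4 lying near the top of the controls and PTU pups 2 and 6 below all of them. PTU exposed minus control, the log2 difference was −0.56 (SE 0.30, unadjusted p = 0.0768, adjusted p = 0.355), and −0.32 without PTU pup 6. *Adamts4*, the aggrecanase with the largest fold change of any member, had 1 normalized count in control pup 1 and a log2 fold change of 1.27 (SE 0.61, 95% interval −0.02 to 2.56, adjusted p = 0.315). *Adamts5*, *Adamts9*, *Adamts15* and *Adamts20* had log2 fold changes of 0.11, −0.21, −0.06 and −0.42, with adjusted p from 0.405 to 0.943.

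The procollagen N-propeptidases trim fibrillar procollagens, and *Adamts3* also processes a lymphatic growth factor and reelin. *Adamts3* had 600.4 to 946 normalized counts in controls (median 685) and 631 to 782 in PTU exposed pups (median 703). The PTU range fell wholly within the control range, and the log2 fold change was −0.04 (SE 0.11, 95% interval −0.27 to 0.19). *Adamts2* and *Adamts14* had means under 100 normalized counts, and their log2 fold changes of 0.99 and −0.90 had SEs of 0.60 and 0.64. Among the remaining ADAMTS genes *Adamts7*, which cuts cartilage matrix proteins, had 672 to 1369.8 in controls (median 878) against 645 to 1111 in PTU exposed pups (median 926). The PTU range lay almost wholly inside the control range, and the log2 fold change was 0.05 (SE 0.16). *Adamts12*, *Adamts13*, *Adamts16* and *Adamts19* stood at 0.15, 0.04, −0.49 and −0.27, with adjusted p from 0.543 to 0.949.

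ADAMTS-like proteins lack the catalytic domain and bind fibrillin microfibrils. *Adamtsl2* had 44 to 93.6 normalized counts in controls (median 78.6) and 61.8 to 164 in PTU exposed pups (median 119). Above all controls lay 4 of 6 PTU pups, PTU pup 6 highest, and PTU pup 2 was below the control mean. The log2 fold change was 0.61 (SE 0.25, unadjusted p = 0.0250, adjusted p = 0.246, exact permutation p = 0.0274). *Adamtsl4* spanned 70.7 to 201 in controls (median 186) and 26.6 to 227 in PTU exposed pups (median 118). The PTU range took in the control range at both ends, and the log2 fold change was −0.52 (SE 0.39, adjusted p = 0.525), and −0.13 without PTU pup 6. *Adamtsl1* and *Adamtsl3* stood at −0.25 and 0.11.

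The spread between pups set what could be seen. The coefficient of variation within groups ran from 9.25% (*Adam10*) to 83.1% (*Adamts14*) with a median of 30.0%, against 1.89% to 27.6% expected from counting alone at the estimated depth. For 45 of 46 members it was more than 2 times the counting error. The median SE of the log2 fold change was 0.46 for the 13 members with a mean under 100 normalized counts and 0.22 for the rest. Among members of like abundance *Mmp2* and *Adamts1* varied widely, at 42.0% and 42.9%, and *Adamts3* little, at 12.9%.

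**Figure D3:**
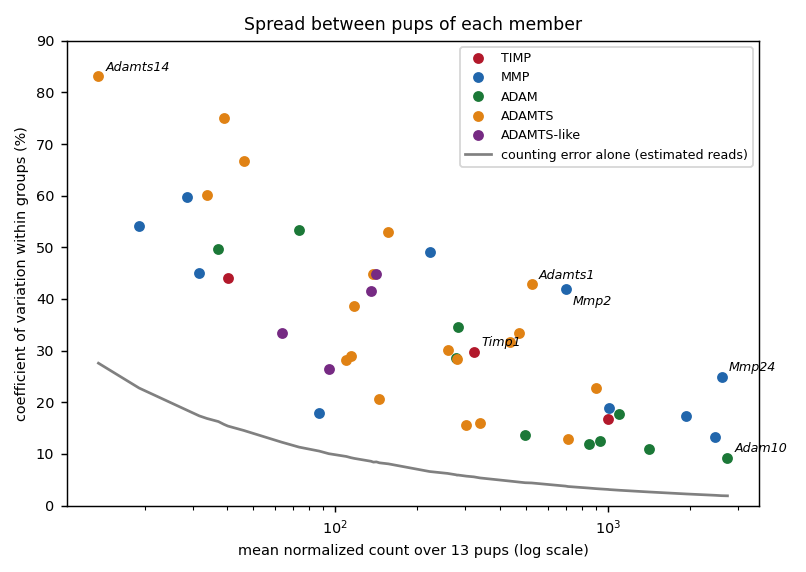
Coefficient of variation within groups (%) of each member against its mean normalized count over the 13 pups (log axis), coloured by family. The grey line is the counting error expected from the estimated reads; every member lies above it, *Mmp2* and *Adamts1* by a wide margin for their level.

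Across members, a few pups stood at the ends. PTU pup 6 was the lowest of its group in 18 of 46 rows and control pup 6 in 16, while PTU pup 1 was the highest of its group in 20 and control pup 5 in 12. The median deviation over members from the row mean was −0.23 in PTU pups 2 and 6 alike and −0.21 in control pup 6. These 3 pups also had the lowest levels of markers of another tissue. The choroid plexus, the secretory tissue that hangs in the ventricle next to the VZ, was represented by all 12 of its markers, none at 0 in every pup. Their summed normalized counts were 52811 to 148111 in controls (median 119733) against 24640 to 106189 in PTU exposed pups (median 59454). All 12 were lower in PTU exposed pups and 7 had an unadjusted p under 0.05, though 0 passed adjustment. Over all rows 49.3% were lower, and 8.2% were lower at an unadjusted p under 0.05. Under scaling to equal totals 3 of the 12 markers had an unadjusted p under 0.05. With the 3 rows of highest mean kept out of the totals 5 of the 12 markers had one. Their score was lowest in PTU pup 6 (−1.64), followed by control pup 6 (−0.70) and PTU pup 2 (−0.68).

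*Mmp2*, *Adamts1* and *Adamtsl4* were the named members whose fold changes moved most when the choroid plexus score entered the model. With it as a covariate their log2 fold changes were 0.43, 0.15 and 0.31, all opposite in sign to the values without it. The fold change of *Timp1* stayed negative at −0.58 (unadjusted p = 0.0288), and those of *Adamts18*, *Mmp14* and *Timp3* were −0.31, −0.10 and −0.02. In the same fit 3 members were lower and 3 higher at an unadjusted p under 0.05, where 12.7% of all rows were under it. The score takes in a difference between the groups themselves (−0.75, exact permutation p = 0.0559), so choroid plexus content and exposure cannot be told apart. The study's methods describe capture of epithelium chosen for its pseudostratified look, and the study states that choroid plexus cells were not part of the sequencing.

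The other marker lists were given for the same reason. The 12 neuron markers summed to 42732 to 64008 in controls and 58871 to 95505 in PTU exposed pups, with 5 higher at an unadjusted p under 0.05, against 8.11% of all rows (exact permutation p of the score = 0.179). Of the 11 radial glia markers, which define the VZ itself, all were measured, all were lower in PTU exposed pups and 6 had an unadjusted p under 0.05 (exact permutation p of the score = 0.00175). Over all rows 49.3% were lower, and 8.2% were lower at an unadjusted p under 0.05. Under scaling to equal totals 0 of the 11 had an unadjusted p under 0.05, and 6 did with the 3 rows of highest mean kept out of the totals. Markers of endothelium (6 of 8 measured), pericytes (6 of 6), microglia (9 of 9), oligodendrocyte lineage (7 of 7), meninges (4 of 7) and ependyma (4 of 5) had score differences with exact permutation p from 0.140 to 0.929, and none of their measured markers was at 0 in every pup. At an unadjusted p under 0.05, 2 pericyte, 2 microglia and 2 ependyma markers were lower (8.2% of all rows) and 1 oligodendrocyte lineage marker was higher (8.11%). Their part in the members' values was not tested beyond the choroid plexus, neuron and endothelial covariates.

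**Figure D4:**
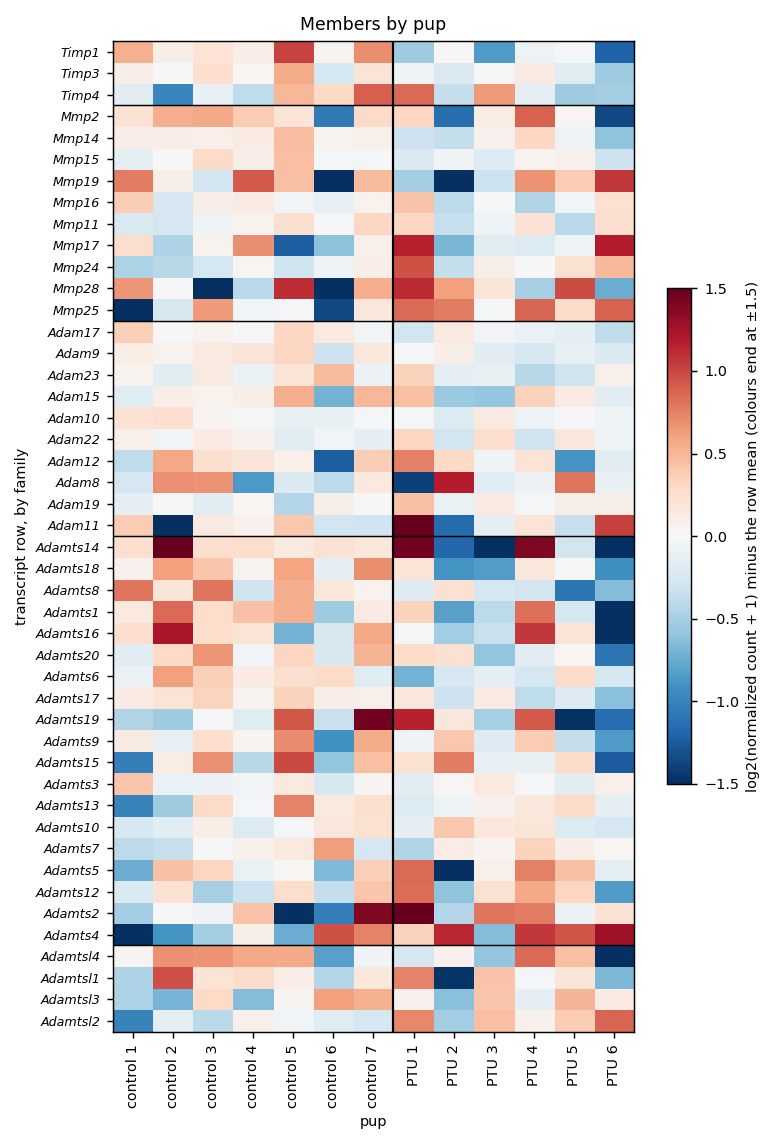
Log2(normalized count + 1) of the 46 members in each pup, minus the row mean (colours end at ±1.5), with families separated by horizontal lines and groups by the vertical line. PTU pup 6 and control pup 6 are blue in many rows and PTU pup 1 is red, while *Timp1* runs from red or pale in controls to blue or pale in PTU exposed pups.

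Ratios of a protease to an inhibitor within the same pup do not depend on scaling, and 4 such pairs, chosen after the values were seen, are given as a description. The ratio of *Adam10* to *Timp1* normalized counts was 4.21 to 10.3 in controls (median 8.16) and 7.88 to 20.5 in PTU exposed pups (median 11.1), with 3 PTU pups above every control. That of *Mmp2* to *Timp1* was 0.990 to 2.92 (median 1.70) in controls and 0.958 to 4.14 (median 3.03) in PTU exposed pups. *Adam17* to *Timp3* was 0.718 to 1.13 in controls and 0.727 to 1.09 in PTU exposed pups. *Mmp14* to *Timp3* was 1.72 to 2.41 and 1.61 to 2.18. The groups overlapped in all 4 ratios.

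Genes that work with the members were read from the same fit by listed pathway, and 0 passed adjustment in any list. Their counts at an unadjusted p under 0.05 stand beside 8.11% of all rows higher and 8.2% lower at that level. Of 20 other protease inhibitors and MMP regulators measured, 1 was higher and 3 were lower at an unadjusted p under 0.05, and 16 were not under it. *Serpini1*, encoding neuroserpin, the neuronal inhibitor of tissue plasminogen activator, had 203 to 464 normalized counts in controls against 332 to 1604 in PTU exposed pups, PTU pup 1 highest (log2 fold change 0.94, SE 0.30, adjusted p = 0.166). *Reck*, a membrane-anchored inhibitor of MMPs and ADAM10, ran from 370.2 to 648 and from 283 to 547, with 4 of 6 PTU pups below all controls (−0.39, SE 0.17, adjusted p = 0.263). *Thbs1*, a matrix thrombospondin, stood at −0.47 (SE 0.17, adjusted p = 0.208).

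Of 25 plasminogen system and other matrix-degrading enzymes measured, 1 was higher and 4 were lower at that level. *Bmp1*, the tolloid protease that trims procollagens at the other end from the ADAMTS enzymes, had 1594 to 1940.0 normalized counts in controls and 1067 to 1902 in PTU exposed pups. Apart from PTU pup 2 the PTU exposed pups lay below all controls (log2 fold change −0.45, SE 0.11, adjusted p = 0.132). *Plat*, tissue plasminogen activator, showed the same arrangement, 1604 to 2689 against 1078 to 2339.9, with PTU pup 2 again the sole PTU pup within the control range (−0.50, SE 0.16, adjusted p = 0.163). *Hyal1*, a lysosomal hyaluronidase, stood at −0.74 (SE 0.27, adjusted p = 0.199).

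All 15 partners of ADAM10 and ADAM17 were measured, with 1 higher and 3 lower at an unadjusted p under 0.05. *Tspan33* and *Tspan5* encode tetraspanins that carry ADAM10 to the cell surface. *Tspan33* had 634 to 904 normalized counts in controls and 321 to 666 in PTU exposed pups, 5 of 6 below all controls (log2 fold change −0.64, SE 0.15, unadjusted p = 0.000637, adjusted p = 0.122). *Tspan5* had 2027 to 2526 and 1758 to 2089, again with 5 of 6 below all controls (−0.22, SE 0.07, adjusted p = 0.171). *Rhbdf1*, the inactive rhomboid that brings ADAM17 to the surface, stood at −0.49 (SE 0.16, adjusted p = 0.174).

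Of 20 shedding substrates 3 were higher and 5 lower at that level. *Aplp2*, a relative of the amyloid precursor, had 8535 to 11560.1 normalized counts in controls against 6758 to 9365 in PTU exposed pups (log2 fold change −0.35, SE 0.09, adjusted p = 0.133). *Ptk7* and *Notch2*, membrane receptors of Wnt and Notch signalling, stood at −0.34 (SE 0.10, adjusted p = 0.148) and −0.47 (SE 0.15, adjusted p = 0.174). The matrix substrates of the ADAMTS enzymes held 1 higher and 7 lower of 18 measured. Among the lecticans, *Bcan* had 10266 to 15714 normalized counts in controls against 7941 to 10822 in PTU exposed pups (−0.35, SE 0.11, adjusted p = 0.150) and *Ncan* had 40977 to 69384 against 35824 to 46127 (−0.32, SE 0.12, adjusted p = 0.208). For both, 4 of 6 PTU pups lay below all controls. *Cspg5*, a membrane chondroitin sulfate proteoglycan, had 4245 to 6333 against 3382 to 4724, with 5 of 6 PTU pups below all controls (−0.32, SE 0.10, adjusted p = 0.164). *Vcan* stood at 0.00 (SE 0.10, 95% interval −0.20 to 0.21), and *Acan* had few counts, 1.86 to 18.01 in controls (median 10.8) and 4.82 to 112 in PTU exposed pups (median 8.70), with PTU pup 1 far above the others (0.59, SE 0.69, adjusted p = 0.694).

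These lists leaned lower by their medians, −0.26 for the inhibitors and regulators, −0.21 for the matrix-degrading enzymes, −0.18 for the ADAM partners and −0.20 for the matrix substrates, with 0.10 for the shedding substrates, beside 0.00 over all rows. Under scaling to equal totals the medians were −0.06, −0.01, 0.02, 0.00 and 0.30, beside 0.20 over all rows, and at an unadjusted p under 0.05 these lists then held 1 to 4 genes each, all higher. With the choroid plexus score as a covariate the medians were 0.01, −0.05, −0.05, −0.11 and −0.04, beside 0.01 over all rows. The inhibitors and regulators then numbered 9 lower and 11 higher, with 0 lower and 3 higher at an unadjusted p under 0.05, and of the matrix substrates 2 were lower at that level in place of 7. With the neuron score as a covariate the medians were −0.25, −0.18, −0.11, −0.20 and −0.09, beside 0.00 over all rows. The shedding substrates then numbered 14 lower and 6 higher, in place of 9 and 11.

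**Figure D5:**
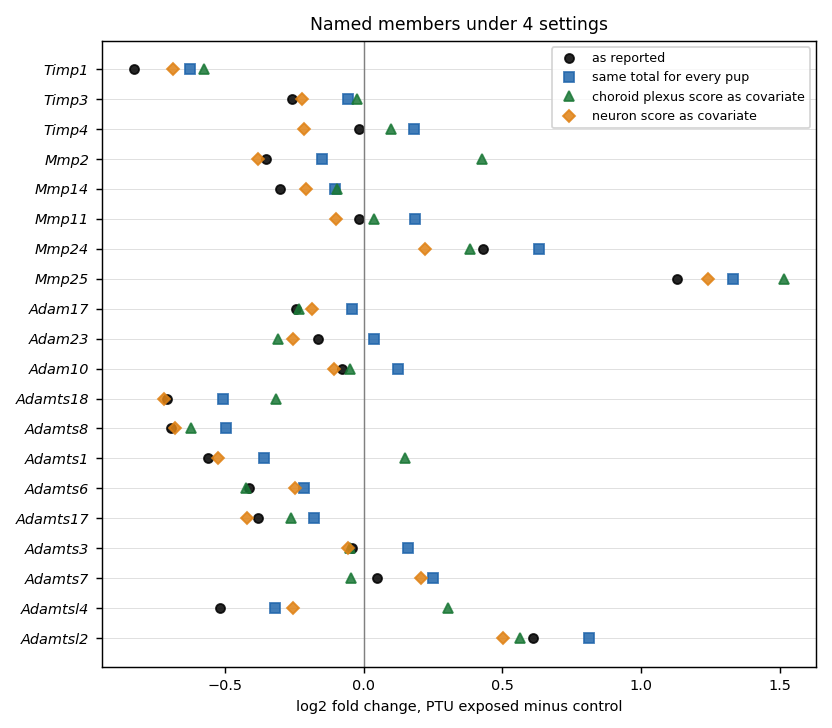
Log2 fold change of the 20 named members (PTU exposed minus control) as reported, with equal totals per pup, and with a choroid plexus or neuron marker score as covariate. *Timp1*, *Adamts18* and *Adamts8* stay below 0 and *Mmp24*, *Mmp25* and *Adamtsl2* above 0 in all 4, whereas *Mmp2*, *Adamts1* and *Adamtsl4* cross 0 with the choroid plexus score.

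The 26 members outside the naming rule comprised 12 that were lower and 14 that were higher. Their log2 fold changes lay between −0.90 and 1.27 and their adjusted p between 0.315 and 0.950. None had an unadjusted p under 0.0535. Estimated depth was 22.3 to 44.4 M reads per pup.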

How the data were processed

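Total RNA libraries (SMARTer Stranded Pico Input kit, ribosomal RNA depleted) came from laser-captured VZ of 13 pups. Per the labels and the study's methods, the authors trimmed reads with Trimmomatic, aligned them with STAR 2.7.8a to mRatBN7.2 (rn7) in Partek, quantified transcripts by expectation-maximization and scaled them by median ratio for DESeq2. The deposited values are therefore a signal of normalized counts, and 88.9% to 90.5% of values between 20 and 150 were whole multiples of a pup's step (tolerance 0.05), too few to recover reads for a count test. Depth was estimated from that step, so intervals and counting errors derived from it are approximate. The table also holds the authors' comparison (p-value, FDR, ratio, fold change and group means), which was not used. Of 14716 rows, 1488 carry no gene symbol and stayed in the fit.

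The 14606 rows whose mean reached 10 were tested as log2(normalized count + 1) with limma 3.58.1 in R 4.3.3 (empirical Bayes with a variance trend, two-sided, no covariate), with Benjamini-Hochberg adjustment over all rows and a threshold of 0.05. Single rows were also tested by exact permutation over all 1716 divisions of the pups, and both were tested on simulated data first. Named members were those with an unadjusted p under 0.05, those without overlap, every *Timp* row and the row of highest mean in each role group. In each pathway list up to 3 genes of lowest p were named, with the lecticans added. ADAMs were divided by protease activity from general knowledge. The members and lists were chosen with earlier results of these data known. Promoters are RefSeq GRCr8 windows, matched by symbol. Alternatives were TMM, quantile and same-total scaling (also without the 3 highest rows, added after the data were seen), pseudocounts of 0.1 and 10, no filter or a mean of at least 100, summed rows per gene, array weights, no variance trend, a replicate block, 3 marker score covariates and each pup left out.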

Additional observations from a re-analysis of the deposited data

Results flagged for a closer look

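Both groups of each of the 20 named members were searched for a pup far from the rest of its group, and 2 of the 40 groups held one, where chance gives about 1 in 20. *Mmp14* was 2634 normalized counts in control pup 5, above 1975 to 2072 in the other controls. *Mmp2* was 304 normalized counts in control pup 6, below 729 to 945 in the other controls. Without control pup 5 the log2 fold change of *Mmp14* was −0.25, against −0.30 with it, and without control pup 6 that of *Mmp2* was −0.55, against −0.35 with it and −0.12 without PTU pup 6.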

How the results depend on the processing

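No member passed an adjusted p of 0.05 under any of the 28 alternatives, including each of the 13 pups left out, and the smallest adjusted p of a named member was 0.0548 (*Timp1*). Of the 20 named members, 11 kept their direction in every alternative run for them, 28 each, or 27 for *Adamtsl2* and *Mmp25*, whose means are under 100. Over all rows the count that passed was 40 with array weights, 18 with the replicate block, 4 with the choroid plexus covariate, and 0 to 179 with a pup left out (179 without PTU pup 2, 7 without control pup 6), against 0 as reported. Members with an unadjusted p under 0.05 numbered 5 with equal totals per pup (1 lower, 4 higher, 11.4% of all rows), 6 with the choroid plexus covariate (12.7% of all rows) and 5 to 12 with a pup left out (5 without PTU pup 6, 12.3% of all rows), against 10 (16.3%). Their median log2 fold change was 0.13 with equal totals, 0.12 with the choroid plexus covariate −0.18 with the endothelial covariate, −0.20 over the 33 members with a mean of at least 100 (23 lower, 10 higher) and −0.14 to −0.03 with a pup left out, against −0.08.

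Signs turned with equal totals for *Adam23* (0.038), *Adam10* (0.12), *Adamts3* (0.16), *Mmp11* (0.18) and *Timp4* (0.18), which follows from the shift of 0.20 in all rows. None of these 5 turned with the 3 highest rows kept out of the totals, an alternative added after the data were seen. They turned with the choroid plexus covariate for *Adamts1* (0.15), *Adamtsl4* (0.31), *Mmp2* (0.43), *Adamts7* (−0.045), *Mmp11* (0.037) and *Timp4* (0.10), the cause of which was not tested. With a pup left out the log2 fold change ran from −0.083 to 0.026 for *Adamts3*, −0.012 to 0.16 for *Adamts7*, −0.079 to 0.063 for *Mmp11* and −0.19 to 0.13 for *Timp4*. Replicate numbers did not pair the pups, which came from separate litters: deviations of same-numbered pups correlated at −0.07 to 0.20, and 1 of 6 PTU pups correlated best with its own number. With the number as a replicate block, which drops control pup 7, 15 members had an unadjusted p under 0.05 (11 lower, 4 higher, 20.2% of all rows), and *Mmp11* (0.035) and *Timp4* (0.13) changed sign. The median SE of 0.46 limits what can be seen in members under 100 normalized counts.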
